A study of Mus musculus with 19 samples.

Results

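The ganglionic eminence homeobox genes are 9 transcription factor genes of the ventral forebrain: Dlx1, Dlx2, Dlx5, Dlx6, Gsx1, Gsx2, Nkx2-1, Lhx6 and Lhx8. Their chromatin was described here by the accessible sites whose nearest protein-coding gene end, within 100 kb, belonged to 1 of these genes. They are 9 of the 21887 protein-coding genes in the annotation used, and 1062 of the 1547369 accessible sites deposited over 19 libraries were assigned to them. The assay was bulk ATAC-seq, which uses a transposase to cut and tag open DNA, on forebrain progenitors that carry the surface protein Prom1 and were collected with magnetic beads from mouse embryos at embryonic day 14. The 4 control libraries carry wild-type Foxc1 and had no diet, and the 5 RA-diet control libraries carry wild-type Foxc1 and had the RA (retinoic acid) diet. The 4 mutant libraries are Foxc1 hith/LacZ with no diet, and the 6 RA-diet mutant libraries are Foxc1 hith/LacZ with the RA diet. Foxc1 is a forkhead factor needed in the meninges, a source of retinoic acid for the forebrain. The hith allele is hypomorphic and the LacZ allele is an insertion. Mutant 1 is a mutant by its title, and its genotype label reads Foxc1 WT. The labels do not say which libraries come from separate embryos, so p-values measure the spread between these libraries, which may be technical.

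The ganglionic eminences are the ventral swellings of the embryonic telencephalon that produce striatal neurons and GABAergic interneurons. Gsx1 and Gsx2 act early in the dividing progenitors, Gsx2 mainly in the lateral eminence. Dlx1 and Dlx2 follow in progenitors that become committed to the GABAergic fate. Dlx5 and Dlx6 come on later in the same lineage. Nkx2-1 defines the medial eminence and acts upstream of Lhx6, which interneurons use on their way to the cortex, and of Lhx8, which is used by cholinergic neurons of the basal forebrain. Dlx1 and Dlx2, and likewise Dlx5 and Dlx6, are neighbours that point towards each other. In bulk tissue, fewer cells with an open site and a less open site per cell cannot be told apart. Each value below covers all collected cells together, whatever their dorsal and ventral make-up.

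An accessible site is given as a summit, the base where the peak caller MACS2 found the strongest signal, with a score that is the −log10 of its q-value. Libraries had 29112 to 122591 summits, so comparisons used the 29112 best-scoring summits of each library, called matched summits, unless all deposited summits are named. Rank 1 is the best-scoring summit of a library. Summits at most 200 bp apart, from at least 2 libraries, were joined into regions. Assignment to the nearest gene end is a rule of distance and does not show which gene a region serves. The median score of a library was 14.8 to 18.1 in controls, 6.44 to 18.4 in mutants, 11.1 to 16.9 in RA-diet controls and 7.33 to 12.9 in RA-diet mutants. Mutants 3 and 4, at 8.19 and 6.44, lay apart from mutants 1 and 2, at 15.5 and 18.4, and results that rest on them are given with and without them. As a check of the cells, 7 of 10 neural progenitor genes, Sox2 among them, had a matched summit at a gene end (within 1 kb) in each library, and the other 3 genes had one in some. The same held for 0 of 10 meningeal fibroblast genes, 1 of 8 endothelial, 1 of 6 mural, 1 of 7 microglial and 0 of 6 erythroid genes. Summed over each list, the meningeal genes held 11 to 12 matched summits in controls, 11 to 15 in mutants, 11 to 14 in RA-diet controls and 13 to 19 in RA-diet mutants; its part in the results was not tested. Foxc1 had 1 to 2 matched summits in controls, 1 to 2 in mutants, 1 in RA-diet controls and 1 to 3 in RA-diet mutants, and since the summits do not read the alleles, they do not check the genotype labels.

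Promoter sequences of RefSeq, build GRCm38.p6, matched 7 of the 9 genes, all except Dlx5 and Dlx6. Those of Gsx1, Dlx2, Gsx2 and Nkx2-1 are shown here because these genes differed in whether any library had a summit in this stretch. Each line is the 250 bases before the annotated start, 5′ to 3′ on the strand of the gene. Capitals mark the span from the first to the last summit that any library had in it, over all deposited summits, and the last line has none.
Gsx1 (chr5:147188446-147188695, plus strand): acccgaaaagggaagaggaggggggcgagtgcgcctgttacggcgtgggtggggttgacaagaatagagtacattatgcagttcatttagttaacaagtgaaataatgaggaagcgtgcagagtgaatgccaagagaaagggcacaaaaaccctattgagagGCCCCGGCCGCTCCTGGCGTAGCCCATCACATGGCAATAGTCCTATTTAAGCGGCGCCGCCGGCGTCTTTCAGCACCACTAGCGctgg
Dlx2 (chr2:71546755-71547004, minus strand): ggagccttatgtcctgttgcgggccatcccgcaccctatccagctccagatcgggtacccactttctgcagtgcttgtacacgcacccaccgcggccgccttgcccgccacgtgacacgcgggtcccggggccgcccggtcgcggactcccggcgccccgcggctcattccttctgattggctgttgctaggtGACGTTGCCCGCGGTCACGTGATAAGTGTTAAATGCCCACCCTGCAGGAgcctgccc
Gsx2 (chr5:75075351-75075600, plus strand): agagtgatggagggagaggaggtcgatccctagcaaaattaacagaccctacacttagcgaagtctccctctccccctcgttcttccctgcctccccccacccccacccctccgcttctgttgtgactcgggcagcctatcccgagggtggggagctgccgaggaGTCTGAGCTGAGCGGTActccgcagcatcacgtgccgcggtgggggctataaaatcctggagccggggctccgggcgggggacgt
Nkx2-1 (chr12:56536909-56537158, minus strand): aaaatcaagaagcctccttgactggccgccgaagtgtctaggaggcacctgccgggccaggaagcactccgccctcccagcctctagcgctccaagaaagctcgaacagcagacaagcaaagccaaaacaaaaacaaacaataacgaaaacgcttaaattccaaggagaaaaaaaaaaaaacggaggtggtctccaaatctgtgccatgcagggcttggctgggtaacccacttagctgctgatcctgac

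Of the 19 libraries, 14 had a deposited summit in the Gsx1 stretch and 12 had a matched one. The Dlx2 stretch had a deposited summit in 9 libraries and a matched one in 3, and the Gsx2 stretch had a deposited summit in 4 and a matched one in 0. No library had a summit in the Nkx2-1 stretch, nor in that of Dlx1, which is not printed. The windows of the table extend to 50 bases past the start and are 300 bases long, and several motifs were searched in them on both strands. The homeodomain core TAATTA was in 0 of 9 windows of the 7 genes (Lhx6 has 3 windows), against 5.29% of all 32851 windows. CAGCTG, a site type of bHLH factors, was in 1 window, of Lhx6, against 16.3%. TGGGAA, the core read by the Notch effector Rbpj, was in 0 windows against 25.6%. AGGTCA, the half-site of nuclear receptors such as those for retinoic acid, was in 2 windows, of Dlx1 and Nkx2-1, against 16.3%. The windows held 47.0% (Lhx8) to 69.3% (Dlx1) G and C, and the median of all windows was 52.7%.

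Over the libraries, the 9 genes together held 11 to 20 matched summits. The mean was 14.25 ± 2.22 (SD, n = 4) in controls, 14 ± 2.45 (SD, n = 4) in mutants, 16.0 ± 1.0 (SD, n = 5) in RA-diet controls and 15.5 ± 2.26 (SD, n = 6) in RA-diet mutants. These ranges overlapped in each pair of groups. Most of the summits belonged to Dlx2, with 88 of 286, and Gsx1, with 72. Nkx2-1 had 36, Lhx8 30, Dlx1 21, Gsx2 17, Lhx6 8, and Dlx5 and Dlx6 7 each. Of all deposited summits of a library, 0.515 to 0.786 per 1000 were near the 9 genes, and the mean per group was 0.707 ± 0.0563 (SD, n = 4) in controls, 0.691 ± 0.0347 (SD, n = 4) in mutants, 0.715 ± 0.0549 (SD, n = 5) in RA-diet controls and 0.642 ± 0.0795 (SD, n = 6) in RA-diet mutants.

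**Figure D1:**
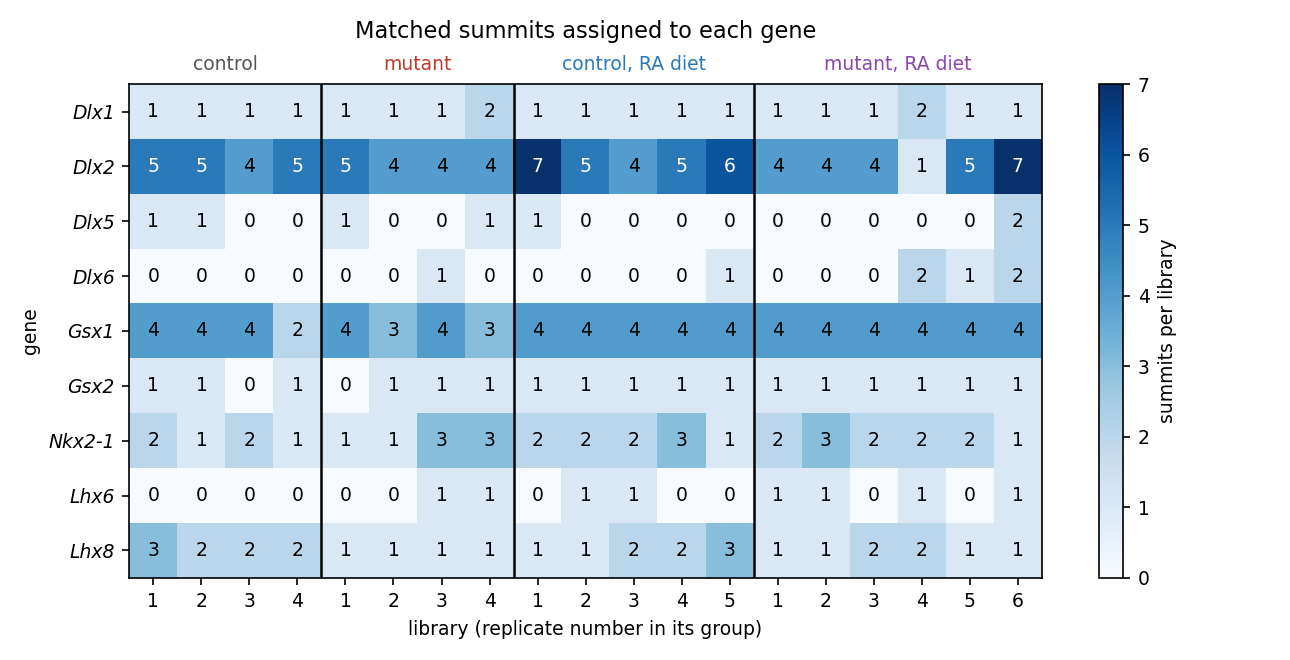
Matched summits assigned to each of the 9 genes (rows) in each of the 19 libraries (columns, by group and replicate number); color and the printed digit both give the number of summits. Gsx1 has 4 summits in each of the 11 libraries on the RA diet, and also in controls 1 to 3 and in mutants 1 and 3. Lhx8 has 2 or 3 in the 4 controls and 1 in each of the 4 mutants.

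The regions of matched summits lay mostly far from the genes. Matched summits formed 25 regions near the 9 genes. Of these, 15 (60%) were over 10 kb from a gene end, against 46.0% of the 36028 regions within 100 kb of any gene end. A summit of each library was in 4 of the 25 regions (16%), against 31.3% of those 36028. Within 1 kb of a gene end were 6 regions (24%), against 32.7%. With all deposited summits the contrast in distance turned. Over 10 kb from a gene end were then 46 of 104 regions (44.2%), against 59.7% of 113317. These shares are descriptions of a short list and carry no test.

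**Figure D2:**
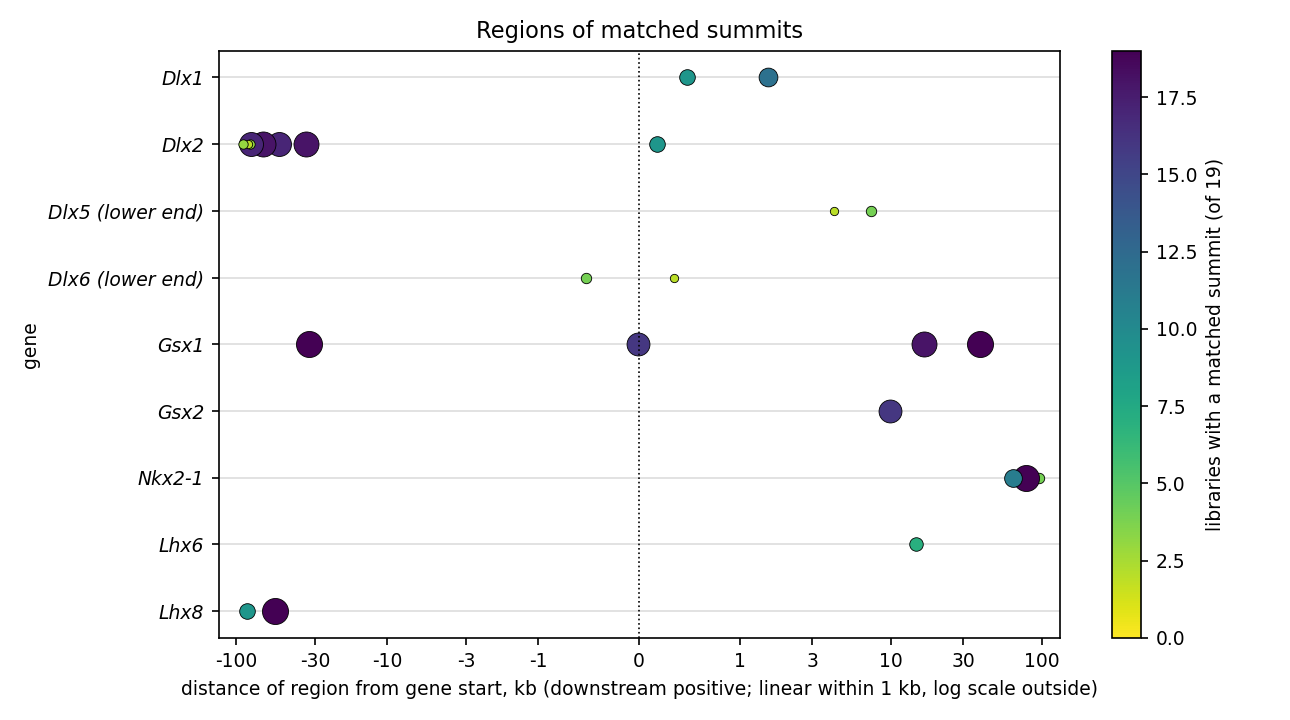
Distance from the gene start (x axis, kb, downstream positive, linear within 1 kb and log scale outside) of the 25 regions of matched summits for each gene (rows); dot size and color give the number of libraries, of 19, with a matched summit. Distances for Dlx5 and Dlx6, whose strand the promoter table does not give, are from the gene end with the lower coordinate. The 4 regions present in all 19 libraries belong to Gsx1, Nkx2-1 and Lhx8 and lie over 30 kb from the start.

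None of the 9 genes had a matched summit at a gene end, meaning within 1 kb of either end, in all 19 libraries. The same count was 6 of 13 dorsal forebrain genes (Emx1, Emx2, Neurog1, Neurod1, Neurod6 and Fezf2), 4 of 30 other genes of the ganglionic eminences and interneurons (13.3%) and 36.6% of all 21887 genes. Gsx1 had such a summit in 16 libraries, Dlx1 and Dlx2 in 9 each, Dlx6 in 5, Dlx5 in 2 and Lhx6 in 1. Gsx2, Nkx2-1 and Lhx8 had one in 0 libraries. With all deposited summits the number was 19 libraries for Dlx2, Dlx6 and Gsx1, 18 for Dlx5, 13 for Gsx2, 12 for Dlx1 and Lhx8, and 8 for Nkx2-1 and Lhx6. A summit in all 19 libraries was thus at 3 of 9 genes (33.3%), against 8 of the 30 other genes (26.7%) and 43.1% of all genes. Weak summits were therefore present at the ends of all 9 genes in some libraries. As list lengths differ, a missing weak summit may mark a short list: RA-diet mutant 4, with the shortest list, held 15 deposited summits near the 9 genes and mutant 2 held 82.

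**Figure D3:**
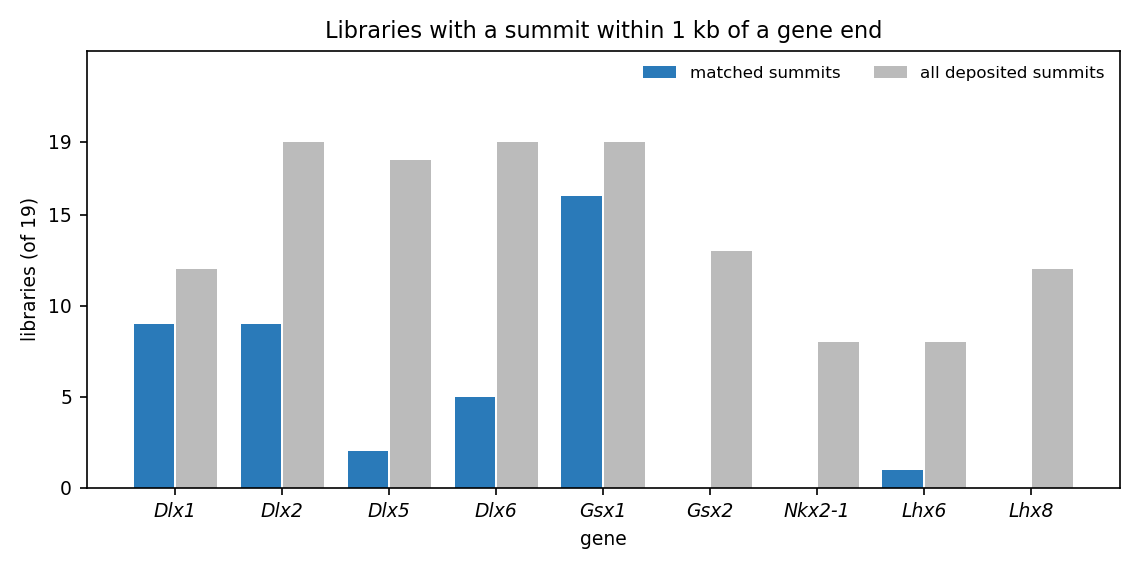
Number of libraries (y axis, of 19) with a summit within 1 kb of an end of each gene (x axis), for matched summits (blue bars) and all deposited summits (grey bars). Only Gsx1 passes 15 libraries with matched summits, and Gsx2, Nkx2-1 and Lhx8 have no blue bar.

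Gsx1, a homeobox gene of early progenitors of the eminences, had 4 regions. The first lay 33.1 kb upstream of the start (chr5:147155543-147155677, in no annotated gene) and had the best median rank of all 25 regions, 5006. Its rank was 7431, 8177, 5146 and 5525 in controls 1 to 4 and 7035, 6073, 3026 and 4020 in mutants 1 to 4. In RA-diet controls 1 to 5 it was 3013, 2762, 3370, 3404 and 5451. In RA-diet mutants it was 1931, 1658 and 1864 in libraries 1 to 3, and 9274, 5006 and 9602 in libraries 4 to 6. Libraries 4 to 6 had the shorter lists, with 29112, 52848 and 48323 summits. Libraries 1 to 3 had 87470, 83640 and 81221, and the part of list length in this split was not tested. The ranks in RA-diet mutants ranged on both sides of all other groups, with an SD of 1.19 on the log2 scale against 0.32 in controls. The log2 rank difference was -0.88 (SE 0.45) between controls on and off the diet, with an adjusted p of 0.705 in limma.

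The second Gsx1 region covered the start (chr5:147188608-147188757, overlapping the first bases of the gene) and is the one in the capitals of the Gsx1 sequence above. A matched summit was there in 3 of 4 controls, 2 of 4 mutants, 5 of 5 RA-diet controls and 6 of 6 RA-diet mutants. All 19 libraries had a summit of some rank, from 12010 to 35751, and the 3 libraries without a matched one (control 4 and mutants 2 and 4) ranked at 31626, 35751 and 34247. Fisher's exact test gave an unadjusted p of 0.133 for mutants on against off the diet, and an adjusted p of 1.

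The third Gsx1 region lay 16.4 kb downstream of the start (chr5:147205019-147205257, in no annotated gene). Its rank was 28153, 23672, 24489 and 32680 in controls 1 to 4 and 11072, 16788, 17259, 14745 and 19375 in RA-diet controls 1 to 5, so the groups did not overlap. In mutants 1 to 4 it was 28452, 28002, 13178 and 19507, where mutants 1 and 2 lay among the controls. Mutant 3 lay within the range of the libraries on the diet and mutant 4 just past it, and these are the mutants with low scores. In RA-diet mutants 1 to 6 it was 17831, 15933, 10459, 10064, 10966 and 18347, all better than any control. The log2 rank difference was -0.80 (SE 0.27) for controls on against off the diet, with an unadjusted p of 0.00593 and an adjusted p of 0.572 in limma. For RA-diet mutants against controls it was -1.0 (SE 0.26), with an unadjusted p of 5.63e-04 and an adjusted p of 0.0857, and for mutants on against off the diet -0.66 (SE 0.26), adjusted p = 0.202. The region passed the threshold for RA-diet mutants against controls without mutant 3 (adjusted p = 0.0423), without RA-diet mutant 6 (0.0137) and without mutants 3 and 4 together (0.0198). In that last fit 675 of 20050 regions were called, against 0 of 18701 in the main fit. Mutants 3 and 4 are in neither group of this comparison, so leaving them out changed only the shared spread and the regions tested. With the median score of the library as a covariate the difference was -0.71 (adjusted p = 0.421 in limma). With the number of summits as a covariate it was -0.85 (0.175). For mutants on against off the diet the difference was -1.07 without mutants 3 and 4, with an adjusted p of 0.104. Because the lists differ in length, a rank difference alone shows no change in accessibility: with the log2 score in place of the rank, sign turned so that negative again means a better score, the difference for RA-diet mutants against controls was +0.48 and the median over all regions was +1.44, so the region lay at -0.96 relative to that median. Across the 19 libraries the score itself ran from 8.24 (mutant 4) to 75.6 (RA-diet control 4).

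The fourth Gsx1 region lay 38.8 kb downstream of the start (chr5:147227428-147227510, in no annotated gene) and had a matched summit in all 19 libraries. Its rank was 21681 to 25523 in controls (median 23169) and 15501 to 19582 in mutants (median 18658), without overlap. It was 18254 to 27974 in RA-diet controls and 17304 to 27294 in RA-diet mutants, both overlapping the controls. The log2 rank difference between mutants and controls was -0.37 (SE 0.22), with an adjusted p of 0.465 in limma.

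**Figure D4:**
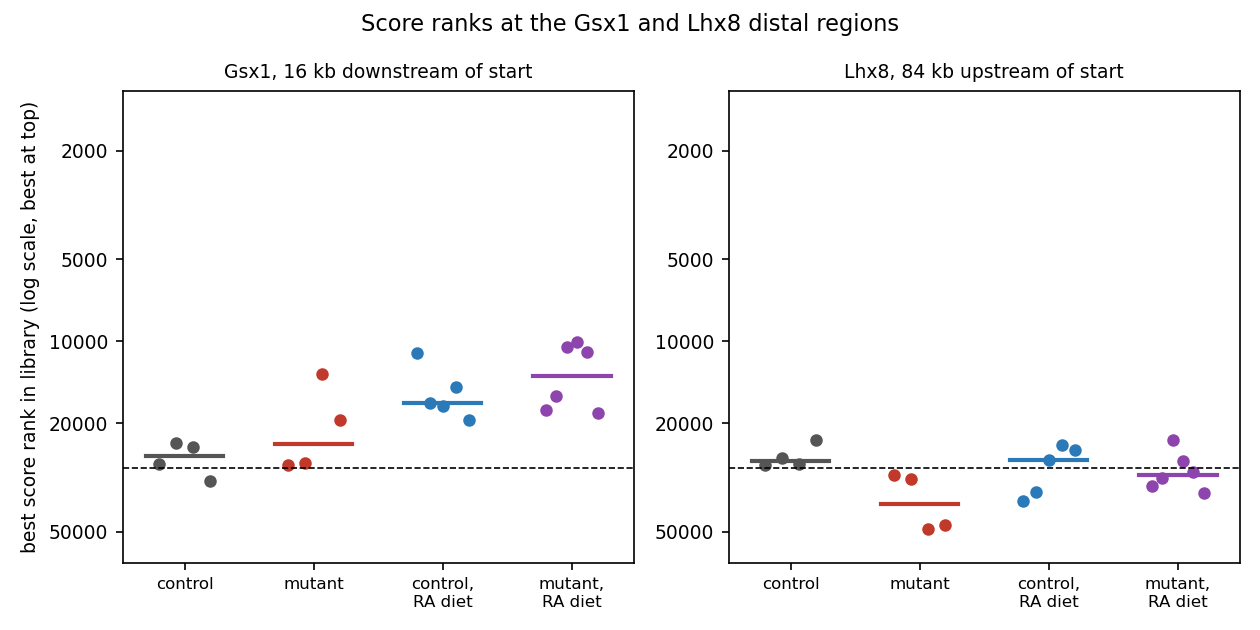
Best score rank (y axis, log scale, best rank at the top) of each library (dots, by group) at the Gsx1 region 16 kb downstream of the start and the Lhx8 region 84 kb upstream; bars are group medians and the dashed line is rank 29112, the end of the matched list. At the Gsx1 region all 11 libraries on the diet rank better than the 4 controls, and at the Lhx8 region the 4 mutants rank below the 4 controls.

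Gsx2, the related gene that sets dorsoventral identity in the lateral eminence, had 1 region of matched summits, 9.86 kb downstream of its start (chr5:75085298-75085618, in no annotated gene). It was found in 3 of 4 controls, 3 of 4 mutants, 5 of 5 RA-diet controls and 5 of 6 RA-diet mutants. Over these 16 libraries the rank was 8205 (mutant 4) to 28156 (control 4) with a median of 17600. No comparison of its presence passed the threshold, and the lowest unadjusted p was 0.444 in Fisher's exact test.

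Dlx1 had a matched summit in each of the 19 libraries, at 1 of 2 places 1.07 kb apart. The first (chr2:71528529-71528642) was 0.473 kb inside the lower end of the gene model, and the other (chr2:71529623-71529692) lay shortly after the start site at 71529445 that the promoter table gives. Both were inside Dlx1. The first alone was used in 7 libraries, the other alone in 10, and both in mutant 4 and RA-diet mutant 4. In mutants the second place was used in 4 of 4 libraries, at ranks 15330, 15637, 6191 and 2620, and in controls in 2 of 4, at ranks 21256 and 17658. In RA-diet controls it was used in 3 of 5 and in RA-diet mutants in 3 of 6. Fisher's exact test gave an unadjusted p of 0.429 for mutants against controls. Whether the 2 places belong to a single open stretch cannot be read from summits.

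Dlx2 had the most summits of the 9 genes. Its matched summits numbered 5, 5, 4 and 5 in controls 1 to 4, 5, 4, 4 and 4 in mutants, 7, 5, 4, 5 and 6 in RA-diet controls, and 4, 4, 4, 1, 5 and 7 in RA-diet mutants. All groups overlapped, and the lone low value was RA-diet mutant 4, the library with the shortest list. Its summits came mainly from 4 upstream regions, at 34.4 kb (chr2:71581175-71581221), 52.3 kb (chr2:71598980-71599060, inside the lncRNA gene Gm36857), 65.9 kb (chr2:71612601-71612691) and 78.9 kb (chr2:71625586-71625629), found in 18, 17, 18 and 17 libraries. The best median rank of these, over the libraries with a matched summit, was 17032, at 52.3 kb. The region at the start (chr2:71546391-71546766), which reaches into the capitals of the Dlx2 sequence above, had a matched summit in 9 libraries and a summit of some rank in all 19, at 13779 to 46784. With 1 of 4 controls, 2 of 4 mutants, 3 of 5 RA-diet controls and 3 of 6 RA-diet mutants, the matched summits at the start did not separate the groups.

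Dlx5 and Dlx6, the later genes of the series, had a mean of 0.368 matched summits per library each. Dlx5 had regions at a gene end (chr6:6881957-6882071) in 2 libraries and 3.06 kb outside it (chr6:6885095-6885155) in 4. Dlx6 had 1 at 0.522 kb outside its lower end (chr6:6862748-6862876), inside the antisense lncRNA gene Dlx6os1, in 1 RA-diet control and 3 RA-diet mutants, and 1 inside the gene (chr6:6863600-6863761) in 2 libraries. All deposited summits put some summit at these places in 15 to 18 libraries. Over those libraries the median rank was 36608 at the Dlx5 gene end and 33968 at 3.06 kb outside it, and 45773 and 46593 at the Dlx6 regions, all past the end of the matched list. In the libraries with a matched summit alone, the best median was 21498 for Dlx5 (2 libraries) and 25286 for Dlx6 (4 libraries). The stretch between Dlx1 and Dlx2, 9.43 kb long, and that between Dlx6 and Dlx5, 9.83 kb long, held 0 matched summits in any library. They held 35 and 37 deposited summits, in 15 libraries each, and the best ranks were 44902 and 33722. Accessible sites in these stretches were thus found below the matched list only.

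Nkx2-1, the factor that defines the medial eminence, had a region 77.8 kb downstream of its start (chr12:56458976-56459146, in no annotated gene) with a matched summit in all 19 libraries. Its rank was 5003 to 6783 in controls (median 5805), 3327 to 9147 in mutants (median 5383), 4099 to 7561 in RA-diet controls (median 5411) and 4781 to 8943 in RA-diet mutants (median 5405). The groups overlapped, and the largest log2 rank difference among the comparisons other than the interaction was 0.12 (SE 0.28), for mutants on against off the diet, with an adjusted p of 0.866 in limma. A region 63.7 kb downstream (chr12:56473167-56473264) was found in 11 libraries and one 95.5 kb downstream (chr12:56441409-56441484) in 4. No matched summit lay within 1 kb of the gene.

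Lhx6, the interneuron gene downstream of Nkx2-1, had 1 region, inside the gene (chr2:36091411-36091560, 14.5 kb after the start). It held matched summits in 0 of 4 controls, 2 of 4 mutants, 2 of 5 RA-diet controls and 3 of 6 RA-diet mutants, and the 2 mutants were mutants 3 and 4. All 4 controls lacked it in the matched list, while 18 of 19 libraries had a summit there at some rank. Fisher's exact test gave an unadjusted p of 0.429 for mutants against controls.

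Lhx8, the gene of cholinergic forebrain neurons, was the one of the 5 tested genes whose summit number passed an unadjusted p of 0.05. Its matched summits numbered 3, 2, 2 and 2 in controls 1 to 4 and 1 in each of the 4 mutants, without overlap. They were 1, 1, 2, 2 and 3 in RA-diet controls and 1, 1, 2, 2, 1 and 1 in RA-diet mutants. The log2 difference was -0.86 (SE 0.25) for mutants against controls, with an unadjusted p of 0.00374 and an adjusted p of 0.671 in limma. For RA-diet mutants against controls it was -0.61 (SE 0.23), with an adjusted p of 0.566. With all deposited summits the sign of the mutant difference turned, to +0.10 (adjusted p of 1), with means of 10.5 ± 2.52 (SD, n = 4) summits in controls and 11.5 ± 3.42 (SD, n = 4) in mutants.

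Of the 30 Lhx8 summits, 28 came from 2 upstream regions. The other 2 were each matched in 1 library, in control 1 at 34.5 kb upstream (rank 28804) and in RA-diet control 5 at 61.3 kb upstream (rank 28329), so the third summit of control 1 was from neither region. The nearer one, 55.5 kb upstream (chr3:154385970-154386173, in no annotated gene), had a matched summit in all 19 libraries, at a median rank of 19637. The farther one, 84.0 kb upstream (chr3:154414519-154414678, in no annotated gene), had a matched summit in 4 of 4 controls, 0 of 4 mutants, 3 of 5 RA-diet controls and 2 of 6 RA-diet mutants. This made it the 1 region of the 25 with a summit in each control and in no mutant. Fisher's exact test gave 0.0286, the smallest p that 4 against 4 allow, and an adjusted p of 1. All mutants had a summit there, past the end of the matched list. The score there was 25.3, 28.0, 47.3 and 69.9 in controls 1 to 4. In mutants 1 to 4 it was 36.8, 45.4, 9.49 and 2.25, so mutants 1 and 2 lay within the range of the controls. The rank of the region was 28418, 26701, 28197 and 23105 in controls 1 to 4 and 30932, 31927, 48735 and 47085 in mutants 1 to 4. Mutants 1 and 2 thus lay just outside the matched list of 29112, and controls 1 and 3 just inside it. The log2 rank difference was 0.55 (SE 0.23), with an unadjusted p of 0.0239 and an adjusted p of 0.372 in limma. Without mutants 3 and 4 it was 0.25 (SE 0.25), with an adjusted p of 1. With the median score of the library as a covariate it was 0.33 (SE 0.24), with an adjusted p of 1. Without mutant 1, whose labels differ, it was 0.66 (adjusted p = 0.14), the Lhx8 summit difference stayed at -0.86, and the Gsx1 region 16.4 kb downstream gave -0.52 (adjusted p = 0.294) for mutants on against off the diet.

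**Figure D5:**
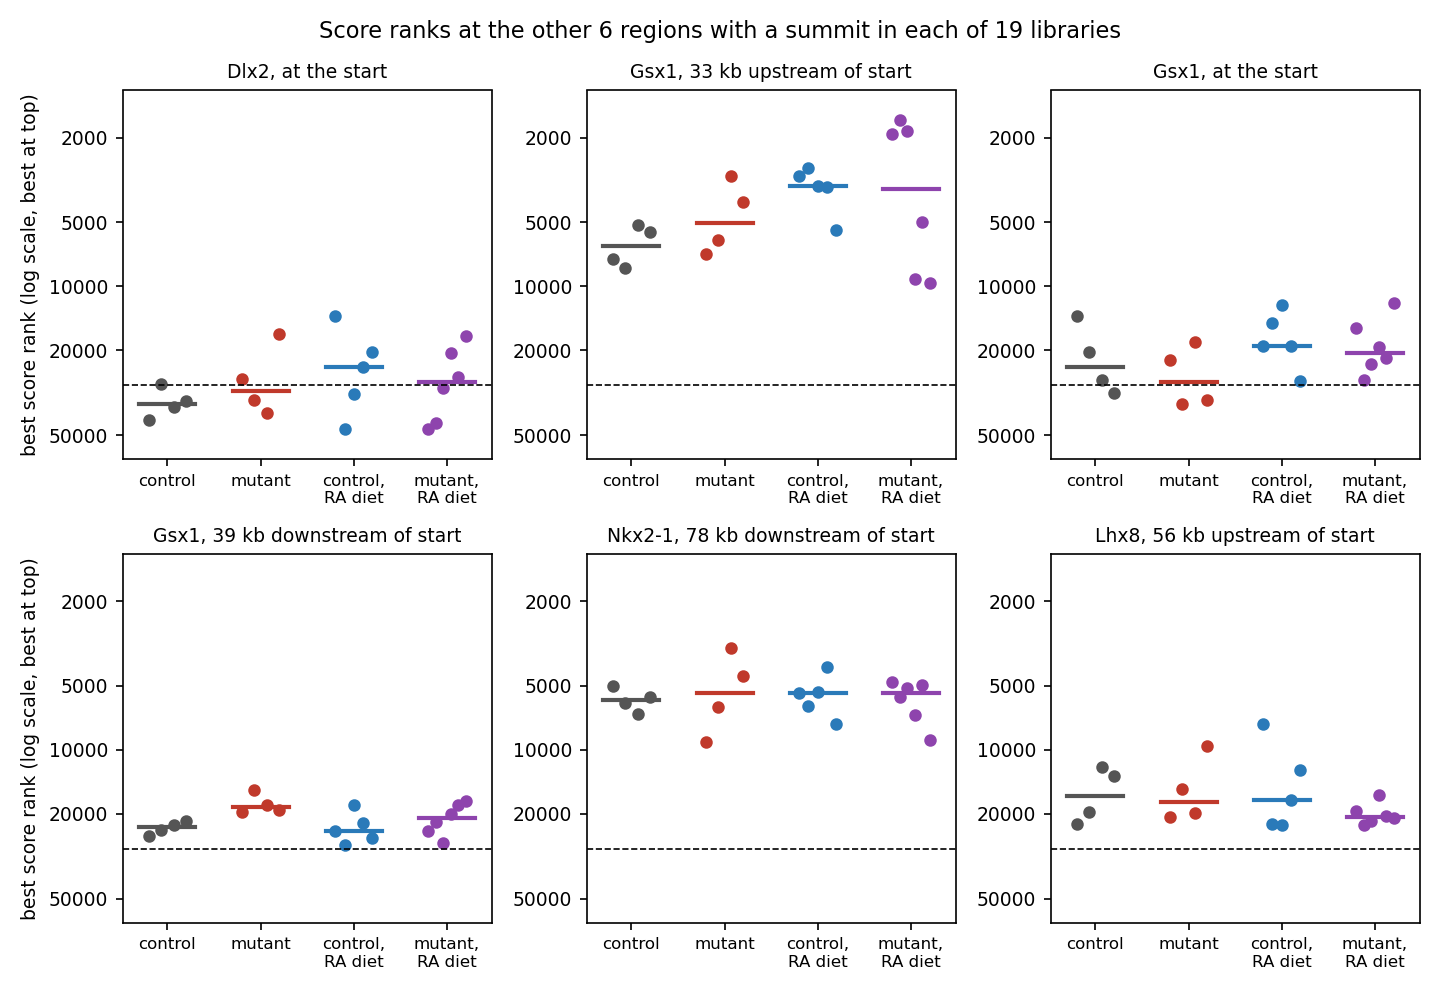
Best score rank (y axis, log scale, best rank at the top) of each library (dots, by group) at the other 6 regions of these genes with a deposited summit in all 19 libraries; bars are group medians and the dashed line is rank 29112. The Nkx2-1 region 78 kb downstream keeps group medians of 5383 to 5805, and at the Gsx1 region 39 kb downstream the mutants and controls do not overlap.

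Across the comparisons, no gene or region of the 9 passed an adjusted p of 0.05. Of the 9 genes, 5 (Dlx1, Dlx2, Gsx1, Nkx2-1 and Lhx8) had a mean of at least 1 matched summit and could be tested among 10826 genes, and the other 4 fell below that filter. By summits per gene, limma called 0 of 5 in each comparison. The background of adjusted calls was 0% of genes for mutants against controls and for controls on against off the diet, 0.0185% for mutants on against off the diet, 0.0277% for RA-diet mutants against controls on it and also against controls, and 0.00924% for the interaction of genotype and diet. At an unadjusted p under 0.05, 1 of 5 (Lhx8) passed for mutants against controls, against 5.7% of genes, and for RA-diet mutants against controls, against 6.67%. It was 0 of 5 for controls on against off the diet (4.26% of genes), mutants on against off the diet (6.82%), RA-diet mutants against RA-diet controls (3.05%) and the interaction (3.49%). The median log2 difference of the 5 genes was 0.03 for mutants against controls, 0.15 for controls on against off the diet and 0.08 for mutants on against off the diet, and the median of all genes was 0 in each.

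By presence in the matched list, Fisher's exact test called 0 of 25 regions at an adjusted p of 0.05 and 0% of all 44878 in each of 5 comparisons, where the lowest adjusted p over all regions was 1. At an unadjusted p under 0.05 it was 1 of 25 (Lhx8, 84.0 kb upstream) for mutants against controls, against 0.152% of regions, and this equals the share of regions fully separated between these groups. It was 0 of 25 for controls on against off the diet (2.62% of regions), mutants on against off the diet (1.21%), RA-diet mutants against RA-diet controls (0.305%) and RA-diet mutants against controls (2.75%). Regions of all deposited summits numbered 104 near the 9 genes, with 8 (7.69%) in all libraries against 13.7% of 113317. Presence in them passed an unadjusted p of 0.05 for 0 of 104 between mutants and controls (background 0.0857%), 3 for controls on against off the diet (2.73%), 4 for mutants on against off the diet (2.7%), 0 for RA-diet mutants against RA-diet controls (0.409%) and 7 for RA-diet mutants against controls (5.08%). These were 12 different regions of 6 genes, with median ranks of 70059 to 82605, beyond the length of the shorter lists. Lists held a mean of 98555 ± 22068 (SD, n = 4) summits in controls and 77804 ± 13693 (SD, n = 5) in RA-diet controls. The mean was 95379 ± 30545 (SD, n = 4) in mutants and 63769 ± 23749 (SD, n = 6) in RA-diet mutants. As the lists were shorter on average on the diet, list length and diet cannot be told apart there.

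By score rank, 8 regions of these genes had a deposited summit in all 19 libraries and were tested among 18701. Limma called 0 of 8 at an adjusted p of 0.05 in each of 6 comparisons, and the background was 0% in all but mutants on against off the diet, where it was 0.00535%. At an unadjusted p under 0.05 it was 1 of 8 for mutants against controls (Lhx8, 84.0 kb upstream), against 12.5% of regions. The Gsx1 region 16.4 kb downstream was the 1 of 8 for controls on against off the diet (7.26% of regions), mutants on against off the diet (16.5%) and RA-diet mutants against controls (15.3%). It was 0 of 8 for RA-diet mutants against RA-diet controls (2.27%) and for the interaction (4.28%). The rank ranges of the groups did not overlap in 2 of 8 regions for mutants against controls (background 2.83%; Lhx8 at 84.0 kb and Gsx1 at 38.8 kb), 1 of 8 for controls on against off the diet (6.41%) and 1 of 8 for RA-diet mutants against controls (4.6%), both times Gsx1 at 16.4 kb. It was 0 of 8 for mutants on against off the diet (1.97%) and RA-diet mutants against RA-diet controls (0.305%). The comparisons with controls share the same 4 libraries, so the repeated Gsx1 values are not independent of each other.

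Among 30 other genes of the ganglionic eminences and interneurons, 24 could be tested, and 0 passed an adjusted p of 0.05 in limma in any comparison. For mutants against controls, 11 of the 24 had a higher mean and 10 a lower one. At an unadjusted p of 0.05 in limma, 2 of them passed, against 5.7% of all 10826 genes. These were Olig1, a bHLH gene of ventral and oligodendrocyte progenitors, with 5.0 ± 1.41 (SD, n = 4) summits in mutants and 2.5 ± 0.577 (SD, n = 4) in controls, and Nkx6-2, a ventral homeobox gene, with 2.75 ± 0.5 (SD, n = 4) and 3.75 ± 0.5 (SD, n = 4). Olig1 also had 4.8 ± 0.447 (SD, n = 5) in RA-diet controls and 4.5 ± 1.38 (SD, n = 6) in RA-diet mutants, and its interaction of genotype and diet was -1.0 (SE 0.32), adjusted p = 1. Its neighbour Olig2 had 2.75 ± 0.5 (SD, n = 4) in controls, 2.25 ± 0.5 (SD, n = 4) in mutants, 1.8 ± 0.447 (SD, n = 5) in RA-diet controls and 1.0 ± 0.894 (SD, n = 6) in RA-diet mutants, with a log2 difference of -1.38 (SE 0.41), adjusted p = 0.391, for RA-diet mutants against controls. Maf, a gene of migrating interneurons, had 1.0 ± 0.816 (SD, n = 4) in controls and 2.6 ± 1.14 (SD, n = 5) in RA-diet controls, with an adjusted p of 1. Of the 13 dorsal forebrain genes, all could be tested, and 0 passed an adjusted p of 0.05 in any comparison. In mutants 7 had a higher and 4 a lower mean than in controls. Lef1 had 4.25 ± 1.71 (SD, n = 4) summits in mutants and 1.25 ± 0.5 (SD, n = 4) in controls. Neurod2 had 0.5 ± 1.0 (SD, n = 4) and 1.5 ± 0.577 (SD, n = 4). Both passed an unadjusted p of 0.05 in limma for mutants against controls. Tbr1 passed for controls on against off the diet (lower) and for RA-diet mutants against RA-diet controls (higher). Emx2 passed for mutants on against off the diet (higher), Neurog2 and Lef1 for RA-diet mutants against controls (higher). For controls on against off the diet, 14 of the 24 ventral genes were higher and 9 lower, and 7 of the 13 dorsal genes were higher and 5 lower, while 2780 of all 10826 genes were higher and 3388 lower. For mutants on against off the diet it was 11 and 13 of the ventral genes, 8 and 5 of the dorsal genes, and 3780 and 3457 of all genes. For RA-diet mutants against RA-diet controls it was 9 and 15 of the ventral genes, 11 and 1 of the dorsal genes, and 3342 and 3659 of all genes. For RA-diet mutants against controls it was 15 and 9 of the ventral genes, 9 and 3 of the dorsal genes, and 3133 and 3743 of all genes, so the larger side of the ventral list changed with the comparison. Of the 5 tested homeobox genes, 3 were higher and 1 lower, 3 and 2, 2 and 2, and 3 and 2 in the same order of comparisons. The difference between these lists was not tested.

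The genes whose summit counts followed those of the 9 most closely were found over the 19 libraries, for the 6 genes with at least 3 different counts. Dlx2 was most like Plekha2 (Pearson r = 0.903 of log2 summits), Dlx5 most like Arhgef17 (0.839), Dlx6 most like Wdr88 (0.858), Gsx1 most like Anxa5 (0.852, with Stpg1 at the same value), Nkx2-1 most like Pus7l (0.850) and Lhx8 most like Btbd10 (0.715, with Jkamp at the same value). These are the highest of 10826 genes for counts that take few values, and the libraries share list length and score level.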

How the data were processed

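Groups were taken from the sample titles. The deposited files list the MACS2 summits of each of 19 libraries, and the authors' score per summit is a −log10 q-value, whose smallest value per library, 1.30 to 1.32, lies at q = 0.05. Per the submitters' processing notes, BWA, MACS2, Signac and DiffBind were used with mm10 and GRCm38; parameters are not given in the sources used here. Read counts were not used here, so the depth in reads is unknown and the number of summits stands in for it. No column was left unmapped.

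Genes and ends came from RefSeq GRCm38.p6. Summits per gene were fitted as log2(summits + 0.5) and region ranks as log2(rank) with limma 3.58.1 (trend, robust) in R 4.3.3, with all 4 groups sharing 1 estimate of the spread. Presence was compared by Fisher's exact test, two-sided, in SciPy 1.17.1. Benjamini-Hochberg adjustment ran over all genes or regions of a comparison, with a threshold of 0.05. Genes needed a mean of at least 1 matched summit, and the rank test needed a summit in each library. The tests were tried on simulated data. Alternatives were list length, pseudocount, filter, assignment, joining distance, scale of the rank, covariates, a replicate block and leaving out libraries; the median score covariate and leaving out mutants 3 and 4 together were added after seeing the data.

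The 9 genes, the gene lists and the tests were chosen with earlier results of these data known. The text names, by rule, all 9 genes, the region of each with the best median rank, each of their matched regions at an unadjusted p under 0.05 or fully separated between groups, the most similar gene over the libraries, and other list genes at an unadjusted p under 0.05. The remaining regions, the Dlx1 positions and the regions whose rank ranges do not overlap were picked out after their values were seen.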

Additional observations from a re-analysis of the deposited data

Results flagged for a closer look

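Within each group of 4 to 6 libraries, a value was singled out when its gap to the nearest other library was a large part of the range of the group, by Dixon's 95% critical value. Of 67 sets of values that varied, 14 met this. Chance flags about 1 in 20, and summit counts of a gene take few values, so a step of 1 summit in 1 library is enough. In controls these were 4 Dlx2 summits in control 3 against 5 in the others, 2 Gsx1 summits in control 4 against 4, 0 Gsx2 summits in control 3 against 1, and 3 Lhx8 summits in control 1 against 2. In mutants they were 2 Dlx1 summits in mutant 4 against 1, 5 Dlx2 summits in mutant 1 against 4, 1 Dlx6 summit in mutant 3 against 0, and 0 Gsx2 summits in mutant 1 against 1.

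In RA-diet controls, control 1 had 1 Dlx5 summit and control 5 had 1 Dlx6 summit, against 0 in the others. At the Gsx1 region 33.1 kb upstream, RA-diet control 5 ranked at 5451 and the other 4 at 2762 to 3404. In RA-diet mutants, mutant 4 had 2 Dlx1 summits against 1, and mutant 6 had 2 Dlx5 summits against 0. RA-diet mutant 6 also had the most matched summits over the 9 genes, 20 against 14 or 15 in the other 5, and without it, as without mutant 3, the Gsx1 region 16.4 kb downstream passed the threshold for RA-diet mutants against controls. Mutant 3 is in neither group of that comparison, so leaving it out changed only the shared spread and the regions tested. No interaction of genotype and diet passed an adjusted p of 0.05 in limma for these genes or regions.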

How the results depend on the processing

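Over 445 recomputed counts of called genes and regions, those of the presence tests included, 441 equalled the main count of 0. The other 4 were 1 called region for RA-diet mutants against controls, each time Gsx1 at 16.4 kb. It was called with the replicate block, without mutant 3, without RA-diet mutant 6, and without mutants 3 and 4 together. Leaving out 1 library at a time gave 0 or 1. Without mutants 3 and 4 together, 675 of 20050 regions were called in this comparison, against 0 of 18701 in the main fit. The log2 rank difference of the Gsx1 region was -1.10 with the block, -1.0 without mutant 3 or without mutants 3 and 4, and -1.09 without RA-diet mutant 6. With the log2 score in place of the rank the sign turned, to 0.48 for RA-diet mutants against controls and 0.066 for mutants on against off the diet, while the medians of all regions were 1.44 and 0.61. As a share of its list, on a logit scale, the rank gave -0.37 (adjusted p of 0.583) for RA-diet mutants against controls, where the median of all regions was 0.92, so the region lay at -1.29 relative to it, against -1.01 on the log2 rank scale. With all deposited summits the Lhx8 summit difference between mutants and controls turned to 0.10; without single libraries it was -0.90 to -0.74, and it was not called. The cause was not tested in any of these.

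The sample titles do not say whether the replicate numbers pair the libraries. Deviations of summits per gene correlated at a median of 0.023 in same-numbered libraries (25 pairs, 2 over 0.1). In differently numbered libraries the median was -0.0046 (109 pairs, 10 over 0.1). Ranks were not checked in this way, so these values do not settle whether the libraries are paired. With the replicate block, 1155 regions of 18701 were called for RA-diet mutants against controls and 1012 for mutants on against off the diet, against 0 and 1 without it, and the block changed no other call for these genes. In the presence tests the lowest adjusted p over all regions was 1, so they say nothing about stability, and unknown read depth limits what a missing summit means.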
